A study of Mus musculus with 60 samples.

Results

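The comparison set Met knock-out (KO) mouse hepatocytes after 24 h of hepatocyte growth factor (HGF) against untreated KO hepatocytes at 0 h. The arrays were chosen by their titles and numbered 12 of the 60 in the series, 6 for each time. Both KO groups were labelled Alb-Cre +/-; Met Fl/Fl, strain 129SV/C57BL6, and the 24 h group had received HGF, at 50 ng/ml by the design text, where another field of the labels gives the unit as nM. Beside them stand 24 h and 0 h cultures of Cre control hepatocytes (WT), heterozygous for Cre recombinase and of strain C57BL, another 12 arrays, so genotype and strain changed together. All mice were males of 9 to 10 weeks, and each group held 3 repeats from 3 individual mice. Each repeat had 2 arrays, 1 for either dye order, with RNA pooled from WT hepatocytes in the other channel. No culture kept for 24 h without HGF was analysed here, so HGF and time in culture cannot be told apart.

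HGF is made by non-parenchymal liver cells and drives growth, survival and movement of hepatocytes through its receptor, the tyrosine kinase Met. Alb-Cre is expressed in cells that use the albumin promoter, so other liver cells in a preparation keep Met. Hepatocytes taken out of the liver and plated are known to lose liver-specific expression in culture, a change called dedifferentiation, and cells meant to lack Met address what a culture does over a day when that receptor is removed.

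After 24 h the KO hepatocytes had lower levels of many liver products. Among them were drug-metabolising enzymes led by Cyp2e1, plasma proteins such as plasminogen, complement and clotting factors, and enzymes of the urea cycle and of bile acid and cholesterol synthesis. Interferon-induced genes such as Isg15 and Gbp4 were lower as well. A shorter set was higher, among them Tuba1a, Aldh1a1, S100a6 and Stmn1. Of 14580 probes tested with limma, 307 (2.11%) passed an adjusted p of 0.05, with 37 higher (0.254%) and 270 lower (1.85%). Counted as genes, each by 1 probe, 25 of 10074 rose (0.248%) and 171 fell (1.7%), while the median difference over all genes was 0.002 on the log2 scale and 49.6% of genes were negative. Values are log2 ratios of the sample to the pooled RNA (a direction that is likely but not settled by the labels), each the mean of a repeat's dye pair, and differences are given with the standard error from limma.

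Several properties of the arrays bear on these counts. The Cy3 array of KO 24 h repeat 2 had an SD over probes of 1.36, and its repeat had an SD of 0.718, against 0.430 and 0.304 in the other KO 24 h repeats. Without repeat 2 there were 211 calls, 23 higher and 188 lower. With that repeat read from its Cy5 array alone there were 18. No probe passed when only the 6 KO repeats were fitted, although 1514 without and 1534 with group weights had an unadjusted p under 0.05, against 1817 in the fit to all 30 repeats. By the array numbers in the titles, repeat 3 lay in other ranges (set B at 24 h and set A at 0 h) than repeats 1 and 2 (set C), and repeats of set C alone gave 644 calls. A further 61 of the 270 lower probes were repeated spots for Gapdh, a glycolytic enzyme often used as a loading control. Averaged over 215 tested spots, Gapdh was -0.20, -0.64 and -0.59 in KO 24 h and 0.44, 0.31 and -0.04 in KO 0 h, a difference of -0.71 ± 0.17 (adjusted p = 0.0299). Of the 307 calls, 246 were not Gapdh spots, 209 of them lower. A refit with the Gapdh spots averaged into 1 value, which gave the adjusted p of Gapdh, called 234 probes. Of these, 36 were higher and 198 lower. Gapdh was looked at after its values were seen.

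The deleted gene itself gave no check of the labels. Met had log2 ratios of 0.18, 0.44 and 0.01 in KO 24 h, against 0.33, 0.31 and -0.04 in KO 0 h, and the groups overlapped. The difference was 0.01 ± 0.19 (adjusted p = 0.998), and neither group was below the WT pool. The sources used here do not say where the probe lies relative to the floxed part. Of the other 18 measured genes around the receptor, among them the adaptors Grb2 and Gab1, the phosphatase Ptpn11 and the transcription factor Stat3, none passed.

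**Figure D1:**
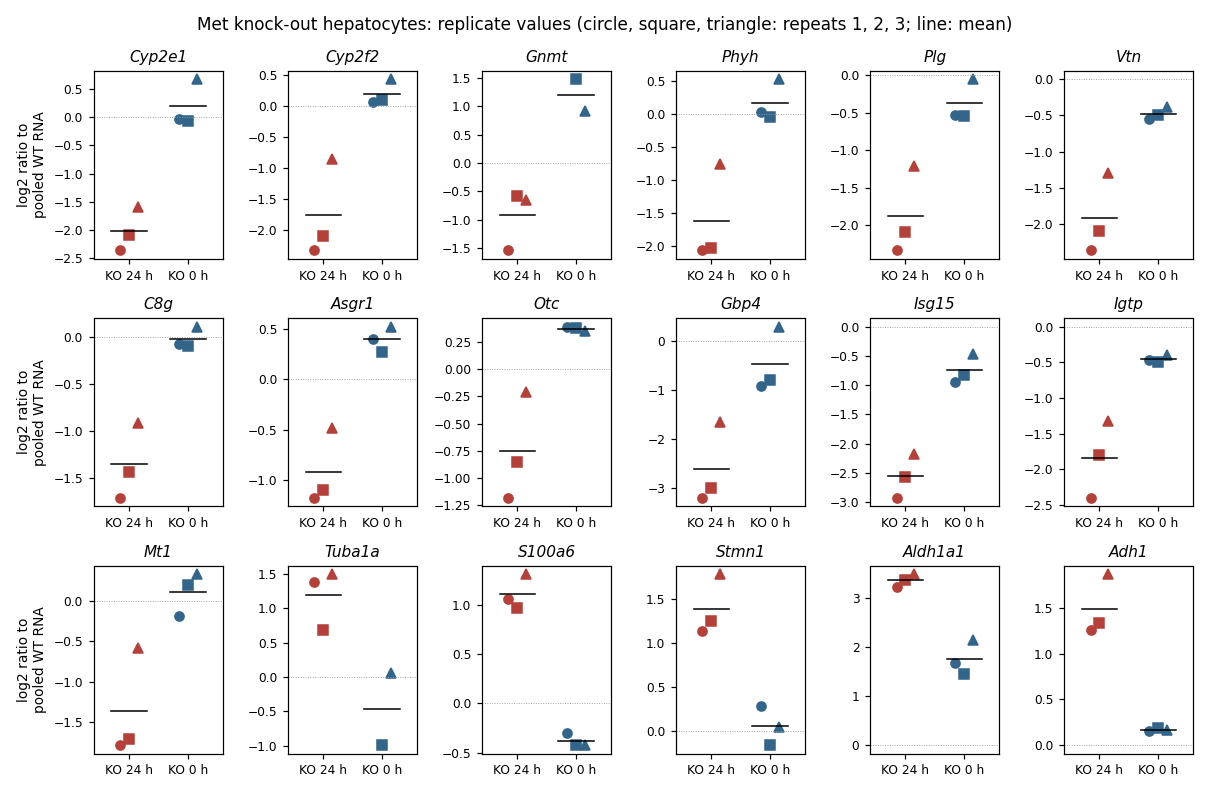
Log2 ratio to pooled WT RNA (vertical axes, own scale in each panel) of 18 named genes in the 3 KO 24 h repeats (left) and the 3 KO 0 h repeats (right), with the mean as a line; Gnmt and Tuba1a have no value for KO 0 h repeat 1. In each panel the groups do not overlap, as held for 256 of the 270 lower and 36 of the 37 higher probes called. Over all tested probes the share was 18.4%. Repeat 3 of KO 24 h (triangle) has the least negative KO 24 h value in Cyp2e1, Phyh and Gbp4.

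Enzymes that oxidise drugs and foreign compounds changed in both directions. Of 37 measured P450 and other phase I enzymes, 7 fell, 3 rose and 27 did not pass, with a median of -0.53 against 0.002 over all genes. Cyp2e1, a P450 that oxidises ethanol and small solvents, had -2.36, -2.09 and -1.60 in KO 24 h, against -0.03, -0.07 and 0.68 in KO 0 h. It fell by 2.21 ± 0.26, or 4.63-fold (adjusted p = 8.37e-05), with -2.14 on Cy5 and -2.29 on Cy3 arrays. The Cyp2e1 values were also used to read the dye pairs as already turned, so its likeness between dyes is no separate check. Over all probes the differences on the dyes correlated at only r = 0.216, and some called genes differed between Cy5 and Cy3 arrays, such as Cxcl9 (-2.27 and -0.54), Aldh1a7 (1.95 and 0.61), Serpina1d (-0.50 and -1.97) and Serpina1b (-0.43 and -1.34). Cyp2f2, a P450 that activates naphthalene, had -2.32, -2.09 and -0.85 in KO 24 h, against 0.07, 0.10 and 0.44 in KO 0 h. In both genes the groups lay far apart, and the difference was -1.96 ± 0.27 for Cyp2f2 (adjusted p = 0.000394). Ces3a, a carboxylesterase, fell by 1.56, and Cyp2c29, Cyp2c39, Cyp2d26 and Cyp2a12 had differences of -1.51, -1.37, -1.10 and -0.88. Without repeat 2 of KO 24 h, 5 of these enzymes fell and 3 rose, since Cyp2c29 and Cyp2c39 no longer passed (adjusted p = 0.0755 and 0.0619). P450 and carboxylesterase genes have close relatives, and probes may share signal between them.

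The 3 phase I enzymes that rose all act on alcohols or aldehydes. Aldh1a1, which oxidises retinaldehyde to retinoic acid, had 3.22, 3.38 and 3.49 in KO 24 h, against 1.69, 1.46 and 2.16 in KO 0 h, so it stood above the WT pool before treatment and rose by 1.59 ± 0.29 (adjusted p = 0.00367). Its close paralogue Aldh1a7 rose by 1.28 ± 0.21 (adjusted p = 0.00183). The paralogues may share signal, so they count as uncertain as separate genes. Adh1, the main liver alcohol dehydrogenase, had 1.26, 1.33 and 1.86 in KO 24 h, against 0.15, 0.19 and 0.16 in KO 0 h. It rose by 1.31 ± 0.29 (adjusted p = 0.0159), with every KO 24 h value above every KO 0 h value.

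Proteins that hepatocytes secrete into plasma were among the most affected. Of 38 measured in the list of albumin, apolipoproteins and other secreted proteins, 11 fell, none rose and the median was -0.39. Of 37 in complement and coagulation, 8 fell, none rose and the median was also -0.39. Plasminogen (Plg), the precursor of the clot-dissolving protease, had -2.33, -2.10 and -1.21 in KO 24 h, against -0.53, -0.54 and -0.05 in KO 0 h. Plg fell by 1.51 ± 0.25 (adjusted p = 0.00183) and Vtn, the adhesive plasma protein vitronectin, fell by 1.44 ± 0.20 (adjusted p = 0.000394). C8g, a subunit of the complement pore, had -1.72, -1.44 and -0.92 in KO 24 h, against -0.07, -0.10 and 0.11 in KO 0 h, a difference of -1.34 ± 0.22 (adjusted p = 0.00183). The clotting factor F10, the pore subunit C9 and the heparin-binding glycoprotein Hrg fell too, with differences of -1.09, -1.03 and -1.22. The 8 calls also held Fga and Fgg, chains of fibrinogen, with differences of -1.20 and -1.18, and the Fgg groups overlapped.

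Ttr, the thyroid hormone carrier transthyretin, had a difference of -1.19 ± 0.25 (adjusted p = 0.0119), and the apolipoprotein genes Apoc3 and Apoc4 had -0.82 and -1.28. Serpina1d and Serpina1b, which encode near-identical forms of alpha-1-antitrypsin and may share probe signal, fell with differences of -1.23 and -0.89. Albumin itself did not pass. Alb had -0.28, -0.01 and -0.07 in KO 24 h, against -0.03, -0.01 and -0.07 in KO 0 h, a difference of -0.08 ± 0.11 (adjusted p = 0.937). Without KO 24 h repeat 2 the secreted list had 6 calls, after losing Ttr, Apoc3, Ahsg, Itih1 and Serpina1a, and complement and coagulation had 6, after losing Fga and Fgg.

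The surface receptor Asgr1, which clears desialylated plasma proteins and marks hepatocytes, had -1.17, -1.10 and -0.48 in KO 24 h, against 0.40, 0.27 and 0.52 in KO 0 h. Its difference was -1.31 ± 0.24 (adjusted p = 0.00347). Over the 19 hepatocyte markers, 7 fell, none rose and the median was -0.66, and 3 fell without KO 24 h repeat 2. Summed over the markers, the log2 ratios ranged from -19.94 to -8.64 in KO 24 h and from -3.06 to -0.59 in KO 0 h. These lists overlap in members, and in a culture fewer hepatocytes and less RNA per hepatocyte cannot be told apart.

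Promoter letters are shown for plasma protein and sugar genes that fell, since the HNF1 factors are known regulators of such genes. RefSeq promoters of GRCm38.p6 (250 bases before to 50 after a start) were matched for 138 of the 171 genes that fell. Their short site GTTAAT was searched on both strands. It was present in 13.8% of these promoters, in 13.6% of the 22 for genes that rose and in 4.89% of the 7973 for all tested genes. Of the 38 named falling genes with a promoter, 9 held it before the start, and 4 are printed 5′ to 3′ on the strand of the gene, with the site, or its reverse complement, in capitals.
Fga, chr3:83026093-83026132, plus strand: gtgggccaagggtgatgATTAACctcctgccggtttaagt
Serpina1d, chr12:103773634-103773666, minus strand: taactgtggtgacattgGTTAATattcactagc
Gckr, chr5:31297487-31297526, plus strand: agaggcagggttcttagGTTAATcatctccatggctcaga
Vtn, chr11:78498991-78499030, plus strand: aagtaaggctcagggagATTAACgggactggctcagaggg
Promoters with under 5 CG dinucleotides made up 36.2% of the falling set, 22.7% of the rising set and 18.1% of all. The letters TATAAA on the gene's strand were in 10.1%, 9.09% and 6.86% of the same sets. The other motifs, CAAAGTCCA for HNF4 and TTGCGCAA for C/EBP on both strands, were found in neither the falling nor the rising set, and in 0.489% and 0.176% of all promoters. A match describes the letters and not a bound factor.

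**Figure D2:**
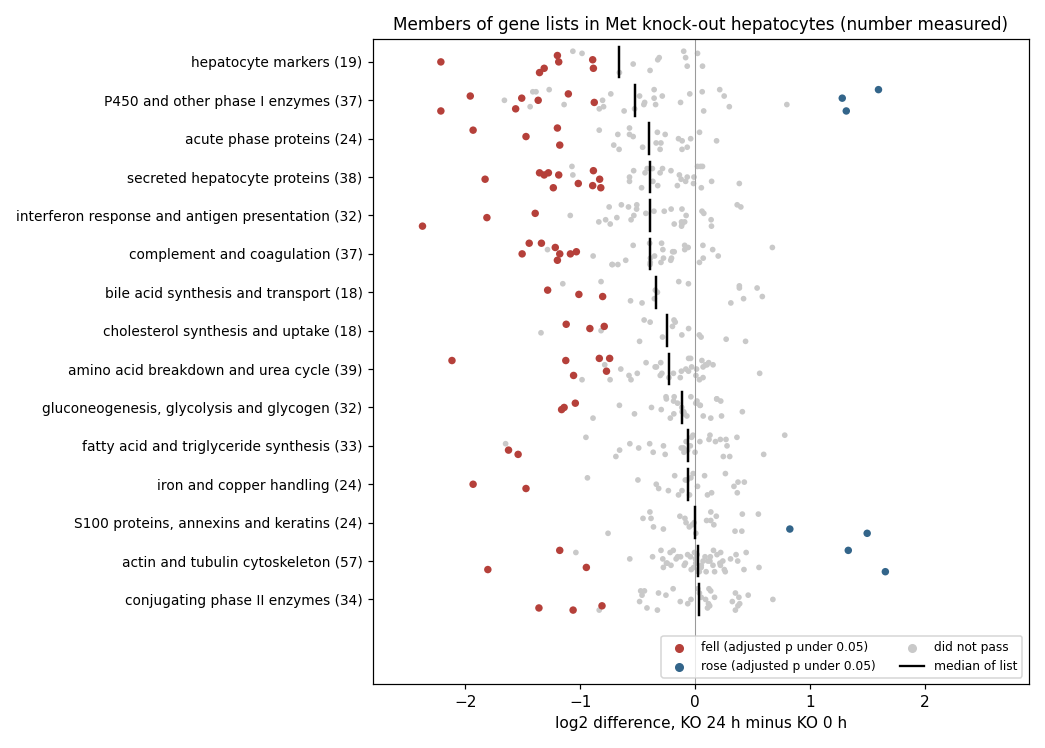
Log2 difference, KO 24 h minus KO 0 h (horizontal axis), of each measured member of 14 pathway lists with at least 2 calls and of the hepatocyte markers, ordered by list median (black bar). Red and blue points fell and rose at an adjusted p under 0.05 and grey points did not pass; red points outnumber blue in all rows but that of S100 proteins, annexins and keratins.

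Intermediary metabolism fell in scattered steps. In amino acid breakdown and the urea cycle, 6 of 39 measured genes fell, none rose and the median was -0.23. Gnmt, which uses up surplus S-adenosylmethionine, had -1.54, -0.58 and -0.65 in KO 24 h, against 1.47 and 0.92 in repeats 2 and 3 of KO 0 h, where repeat 1 had no value. It fell by 2.12 ± 0.30 (adjusted p = 0.000636) from a level above the pool to one below it. The urea cycle genes Otc and Ass1 fell, with differences of -1.13 ± 0.21 and -1.06 ± 0.17 (adjusted p = 0.00572 and 0.00183). The rest of the calls were Mat1a, which makes S-adenosylmethionine, Hgd of tyrosine breakdown and Aldh6a1 of valine breakdown, and the last pair no longer passed without KO 24 h repeat 2. A second Hgd probe did not pass (-0.29 ± 0.19, adjusted p = 0.653).

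Lipid and sterol genes followed with fewer calls. In bile acid synthesis and transport, 3 of 18 fell (median -0.34). These were Slc27a5, which activates bile acids with coenzyme A (-1.28 ± 0.22, adjusted p = 0.00273), Cyp7b1, the oxysterol hydroxylase (-1.01 ± 0.22, adjusted p = 0.0146) and Hsd3b7, a steroid ring dehydrogenase (-0.80 ± 0.20, adjusted p = 0.0312). In cholesterol synthesis and uptake, 3 of 18 fell (median -0.24), namely Msmo1, Fdps and Dhcr7, enzymes of the sterol pathway, with differences of -1.12, -0.92 and -0.79. In each of these 6 genes the 3 KO 24 h values lay below the 3 KO 0 h values. Genes picked as called mostly show this, since 256 of the 270 lower probes had groups that did not overlap, against 18.4% of all tested probes. The rate-limiting bile acid enzyme Cyp7a1 was not tested, and neither were Myc and Ccnd1, because too few repeats had values on both dyes in every group.

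Phyh, which starts the peroxisomal breakdown of phytanic acid, had -2.07, -2.04 and -0.77 in KO 24 h, against 0.03, -0.05 and 0.52 in KO 0 h, and fell by 1.79 ± 0.27 (adjusted p = 0.000799). It was the only call among 32 genes of fatty acid oxidation and ketogenesis, whose median was 0.08, a share near the 1.7% of all genes that fell. Of 33 genes of fatty acid and triglyceride synthesis, the 2 that fell were Dgat2, which makes triglyceride (-1.54 ± 0.30, adjusted p = 0.00766), and the elongase Elovl6 (-1.62 ± 0.41, adjusted p = 0.0359). Elovl6 rested on repeat 2 of KO 24 h, at -2.69 against 0.35 and 0.15 in the other repeats, and its difference was -0.65 without it (adjusted p = 0.308). Among 32 genes of glucose metabolism, 3 fell, the fructose kinase Khk (-1.16), the glucokinase regulator Gckr (-1.14) and the lactate dehydrogenase subunit Ldhb (-1.04). Conjugating enzymes gave 3 calls of 34, the sulfotransferases Sult2a8 and Sult1a1 and the glucuronyltransferase Ugt2b1, with a list median of 0.03. Sult1a1 alone of them passed without KO 24 h repeat 2.

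Acute phase and metal-handling genes overlapped in their calls. Of 24 acute phase genes, 4 fell (Fga, Fgg, Hamp and Mt1) and none rose, with a median of -0.40, and of 24 genes of iron and copper handling 2 fell (Hamp and Mt1), with a median of -0.06. Mt1, a metallothionein that binds zinc and copper, had -1.79, -1.71 and -0.58 in KO 24 h, against -0.19, 0.20 and 0.33 in KO 0 h, a difference of -1.47 ± 0.29 (adjusted p = 0.00623). Hamp encodes hepcidin, the hormone that limits iron export. It had -1.35, -1.03 and 0.06 in KO 24 h, against 1.63, 1.86 and -0.03 in KO 0 h. The repeat 3 values lay close together while repeats 1 and 2 were far apart, so the groups overlapped, and its call (-1.93 ± 0.47, adjusted p = 0.0266) was lost without KO 24 h repeat 2 (adjusted p = 0.0603).

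Of 29 hepatocyte transcription factors and nuclear receptors, the single call was Nr5a2, a nuclear receptor of sterol and bile acid genes, which fell by 0.78 ± 0.18 (adjusted p = 0.0254), and the list median was -0.02. A single call of 29 is near the 1.7% of all genes that fell. Hnf4a, a master regulator of hepatocyte genes, had -0.01, -0.20 and -0.17 in KO 24 h, against 0.09, 0.11 and 0.37 in KO 0 h. The groups did not overlap, but its difference of -0.31 ± 0.16 did not pass (adjusted p = 0.424). Among all tested probes, 18.4% had KO groups that did not overlap. The fetal liver gene Afp gave -0.52 ± 0.25 (adjusted p = 0.406) and the epithelial cadherin Cdh1 -0.40 ± 0.31 (adjusted p = 0.767), both with overlapping groups.

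Some interferon-induced genes fell beside the liver products. Of 32 measured genes of the interferon response and antigen presentation, 3 fell, none rose and the median was -0.39. Of all genes tested, 1.7% fell. The medians of the list by repeat overlapped, at -1.18, -0.82 and -0.43 in KO 24 h, against -0.59, -0.56 and -0.06 in KO 0 h. Isg15, a ubiquitin-like modifier, had -2.93, -2.57 and -2.17 in KO 24 h, against -0.95, -0.83 and -0.46 in KO 0 h. Igtp, an interferon-induced GTPase, had -2.40, -1.79 and -1.33 in KO 24 h, against -0.46, -0.49 and -0.39 in KO 0 h. Neither gene overlapped between groups, and the differences were -1.81 ± 0.26 (adjusted p = 0.000517) and -1.39 ± 0.25 (adjusted p = 0.00382). Such a lack of overlap was seen in 18.4% of all tested probes. Outside the list, the guanylate-binding proteins Gbp4 and Gbp8, also interferon-induced GTPases, fell, with differences of -2.14 ± 0.36 and -2.13 ± 0.42 (adjusted p = 0.00199 and 0.00694). Rtp4, an interferon-induced chaperone, fell by 2.59 ± 0.46 (adjusted p = 0.00365) with values of -2.36, -5.03 and -1.85 in KO 24 h, against -0.73 and -0.26 in repeats 2 and 3 of KO 0 h. Without KO 24 h repeat 2 its difference was -1.61 (adjusted p = 0.00879), and Cxcl9, a chemokine induced by interferon gamma, had a difference of -1.40 ± 0.34 with and -1.54 without that repeat and passed both ways.

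Ifit1, an RNA-binding interferon effector, was the third call of the list at -2.37 ± 0.57 (adjusted p = 0.0258), from -3.29, -5.74 and -1.72 in KO 24 h, against -1.26 and -1.17 in repeats 1 and 2 of KO 0 h. It was -1.29 without KO 24 h repeat 2 (adjusted p = 0.154), while the list then still had 3 calls because H2-Eb1, an antigen-presenting class II chain, passed in its place. Most of the list did not pass, among them Irf7 at -1.09, Rsad2 at -0.58, Irf1 at 0.40 and Mx1 at 0.14.

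The interferon-stimulated response element is the short repeat through which such genes are known to be switched on, and its letters are shown for the 3 calls of the list. GAAANNGAAA was searched on both strands, with overlapping matches kept, and capitals mark every matched base.
Ifit1, chr19:34640770-34640828, plus strand: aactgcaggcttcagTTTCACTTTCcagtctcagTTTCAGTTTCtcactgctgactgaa
Isg15, chr4:156200860-156200911, minus strand: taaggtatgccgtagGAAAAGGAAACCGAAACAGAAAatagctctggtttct
Igtp, chr11:58199507-58199546, plus strand: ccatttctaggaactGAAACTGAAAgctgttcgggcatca
All 3 calls of the list that have a promoter held the element before the start, and so did 7 of the 21 members that did not pass. Across sets it was in 6.52% of the falling, in none of the 22 rising and in 3.02% of all promoters. Rtp4, Gbp4 and Gbp8 have no promoter in the table. Cxcl9 had no match, which says only that these letters are not in its window. Gbp2, which did not pass (-0.78 ± 0.38, adjusted p = 0.410), is shown for contrast.
Gbp2, chr3:142620589-142620628, plus strand: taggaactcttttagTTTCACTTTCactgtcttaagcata

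Genes of cell shape moved in opposite directions within 1 list. Of 57 measured actin and tubulin genes, 2 rose, 3 fell and the median was 0.03. Tuba1a, an alpha-tubulin, had 1.38, 0.69 and 1.49 in KO 24 h, against -0.99 and 0.06 in repeats 2 and 3 of KO 0 h, a rise of 1.65 ± 0.32 (adjusted p = 0.00650). Stmn1, which destabilises microtubules in dividing and moving cells, had 1.13, 1.25 and 1.78 in KO 24 h, against 0.28, -0.16 and 0.05 in KO 0 h, and rose by 1.33 ± 0.21 (adjusted p = 0.00142). Both genes had all KO 24 h values above all KO 0 h values. The beta-tubulin Tubb3 fell by 0.95 ± 0.15 (adjusted p = 0.00183), and Actg1, a cytoplasmic actin named after its values were seen, fell by 1.18 ± 0.23 (adjusted p = 0.00655). Tubb6, another beta-tubulin, fell by 1.80 ± 0.34 with -3.55 in repeat 2, and its difference was -0.94 without that repeat (adjusted p = 0.00921). Tubulins and actins are near-identical families whose probes may share signal.

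S100a6, a calcium-binding protein often expressed in proliferating cells, had 1.06, 0.97 and 1.31 in KO 24 h, against -0.30, -0.43 and -0.42 in KO 0 h. It rose 2.82-fold, a log2 difference of 1.50 ± 0.25 (adjusted p = 0.00199), and the membrane-binding annexin Anxa5 rose by 0.82 ± 0.18 (adjusted p = 0.0157). They were the 2 calls among 24 S100 proteins, annexins and keratins, none of which fell, and the list median was close to that of all genes. Further rises came from Rad51b, a DNA recombination factor (1.25 ± 0.23, adjusted p = 0.00365), Pde9a, a cyclic GMP phosphodiesterase (1.12 ± 0.27, adjusted p = 0.0258), Mob2, a kinase regulator (1.03 ± 0.23, adjusted p = 0.0156), and the membrane protein Tmem176b (0.90 ± 0.23, adjusted p = 0.0378). Without KO 24 h repeat 2, the first 3 of these still passed and Tmem176b did not (adjusted p = 0.0932).

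Lists with no call were 12 of 33. They covered 42 cell cycle and DNA replication genes (median 0.04), 28 immediate early genes (median near 0), 50 integrin, adhesion and matrix genes, 14 YAP targets, 26 heat shock proteins, 33 proteasome subunits, 48 respiratory chain subunits and 26 apoptosis regulators. Egr1, an immediate early gene of growth factor signalling, was 0.04 ± 0.31 (adjusted p = 0.996). The housekeeping list had no call with each gene counted by 1 probe. Its member Tfrc did not pass by the probe used (-0.94 ± 0.26, adjusted p = 0.0543). A second Tfrc probe did (-0.88 ± 0.22, adjusted p = 0.0312). The 50 cytosolic ribosomal proteins had a median of 0.21 with 4 negative members, and none passed. Their medians by repeat overlapped, at 0.14, 0.38 and -0.11 in KO 24 h, against -0.04, -0.12 and -0.06 in KO 0 h. Without KO 24 h repeat 2 the list median was 0.11. Endoplasmic reticulum chaperones gave 1 call of 38, the oxidase Ero1a (-1.43 ± 0.30, adjusted p = 0.0129), and translation factors 1 of 32, the helicase Eif4a2 (-0.89 ± 0.18, adjusted p = 0.00693). In lists of this size, no call or 1 call is near the 1.7% of all genes that fell.

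Markers of other liver cells gave 2 calls, both lower, in lists of 4 to 13 measured genes. Of all genes tested, 1.7% fell, and a difference from that share was not tested. Of 10 stellate cell and fibroblast markers 1 fell, the collagen Col3a1 (-1.07 ± 0.17, adjusted p = 0.00183), and of 10 bile duct markers 1 fell, the water channel Aqp1 (-2.10 ± 0.53, adjusted p = 0.0333), which was -0.69 without KO 24 h repeat 2 (adjusted p = 0.25). None of 10 Kupffer cell, 10 endothelial, 13 lymphocyte and 4 red cell markers passed. Summed log2 ratios of the Kupffer markers were -7.72 to -1.52 in KO 24 h and -1.09 to -0.005 in KO 0 h, and those of the endothelial markers -4.71 to -1.47 in KO 24 h and -2.88 to -0.28 in KO 0 h. The Kupffer list had a median difference of -0.20 with 6 of 10 members negative. Its medians by repeat overlapped, at -0.21, -0.09 and -0.23 in KO 24 h, against 0.04, -0.14 and -0.19 in KO 0 h. The endothelial list had a median difference of -0.13 with 9 of 10 members negative. Ratios to a pool do not show which markers are absent, and the part of these cells in the interferon or other results was not tested.

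How far the calls rest on KO 24 h repeat 2 differed between genes. Of the 12 named genes with the lowest differences, 6 were called without it (Rtp4, Cyp2e1, Gbp4, Gbp8, Gnmt and 1700001D01Rik, which had no value in repeat 2). For Them7, Erlin1 and Gpatch1 the value of repeat 2 was -4.88, -4.61 and -3.89, and the differences of -2.15, -2.01 and -2.05 were -0.96, -0.76 and -0.14 without it. Msmb, at -5.52 in repeat 2, had a difference of -2.40 and was not called without that repeat (adjusted p = 0.0507). Pard3b had 2 values in each group and a difference of -2.51. Without repeat 2, Pard3b, Gpatch1 and Klk8 are left with 1 KO 24 h value, so their spread is taken from the other groups, and Pard3b was -2.07. Among the 12 highest, Klk8 at 1.94 and Wbp1 at 1.34 became 0.23 and 0.46. Of all called probes, 88 of the 270 lower (32.6%) and 3 of the 37 higher (8.11%) were more than 1.5 times smaller without it. All 307 kept their sign, and 124 of the lower and 20 of the higher were called again. The 270 lower probes include the 61 repeated Gapdh spots.

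**Figure D3:**
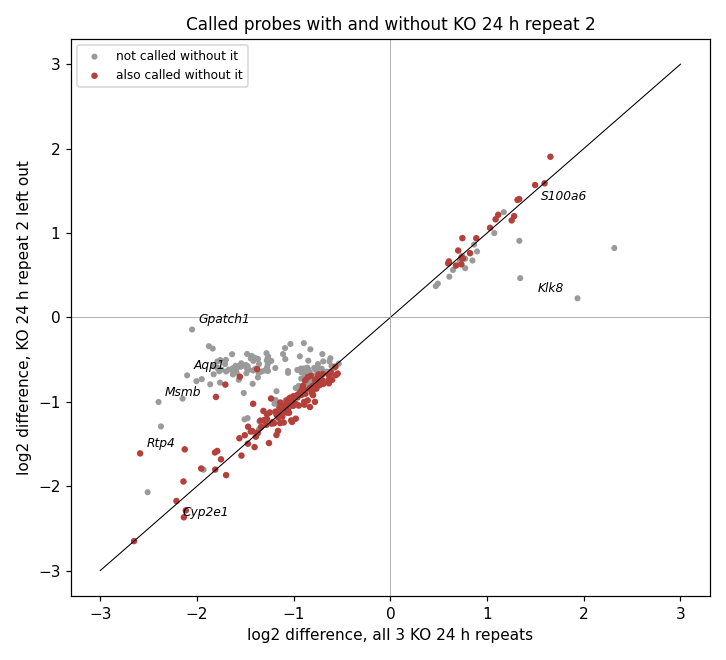
Log2 difference of the 307 called probes with KO 24 h repeat 2 left out (vertical) against the value with all 3 repeats (horizontal), with the line of equal values. Red points (144) are called both ways; a band of grey points on the left, Gpatch1, Aqp1 and Msmb among them, lies above the line, with smaller differences when the repeat is left out.

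Uncharacterised 1700001D01Rik was the lowest of all at -2.65 ± 0.33 (adjusted p = 0.000394), but it had 2 values a group, -0.24 and 0.01 in KO 24 h against 2.98 and 2.09 in KO 0 h, and was 0.03 on Cy3 arrays against -3.68 on Cy5 arrays.

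Earlier times in KO cells, read against the same KO 0 h repeats, are given as levels. The treatment field of the 12 h samples gives another time than their titles, and the titles were used here. Cyp2e1 averaged 0.19 at 0 h, 0.11 at 0.5 h, 0.60 at 2 h, -0.93 at 12 h and -2.02 at 24 h. Isg15 averaged -0.75, -1.10, -0.13, -2.14 and -2.56 at the same times. Levels of Cyp2e1 at 12 h thus lay between those at 2 and 24 h, and Isg15 was already near its 24 h level at 12 h. Aldh1a1 averaged 1.77, 1.69, 1.56, 2.61 and 3.36, and S100a6 -0.38, -0.52, -0.47, 0.75 and 1.11. All 0.5 h repeats and repeats 1 and 2 at 2 h lay in a further range of array numbers, set D, whose part in these levels was not tested.

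**Figure D4:**
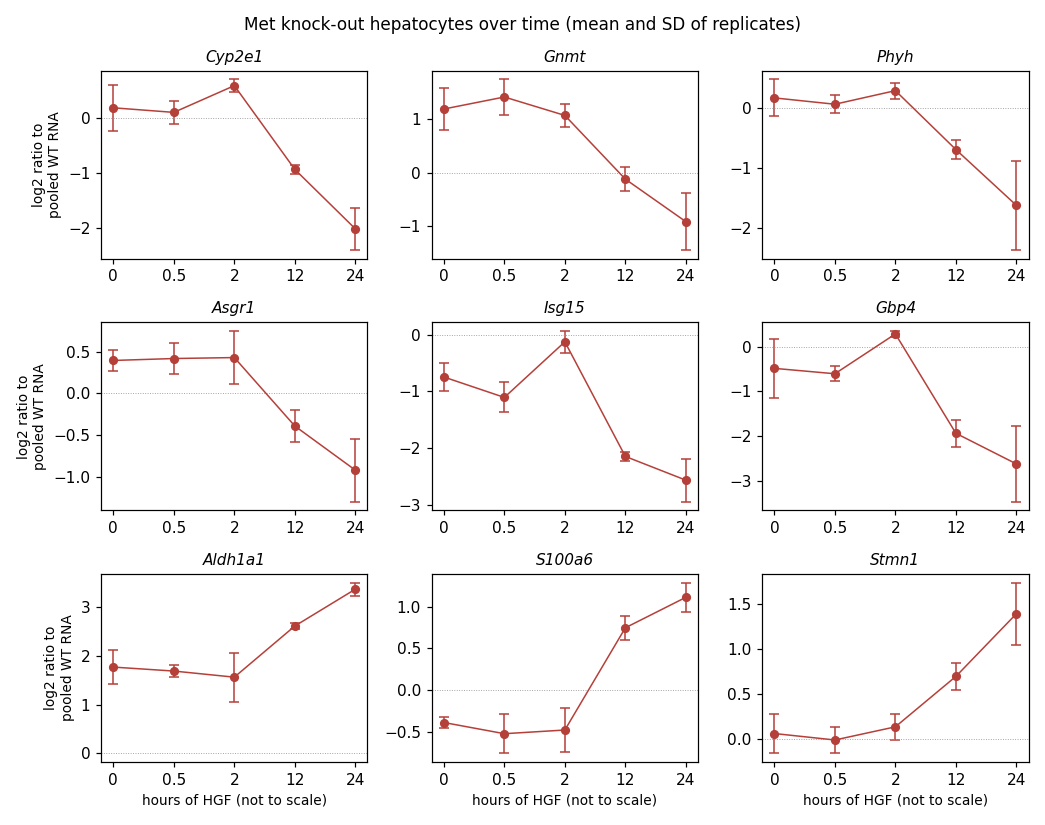
Mean log2 ratio to pooled WT RNA with SD over repeats (vertical, own scale in each panel) of 9 genes in KO hepatocytes at 0, 0.5, 2, 12 and 24 h of HGF (horizontal, evenly spaced and not to scale). Cyp2e1, Gnmt, Phyh, Asgr1, Isg15 and Gbp4 are lowest at 24 h, and Aldh1a1, S100a6 and Stmn1 highest at 24 h. Times are those of the sample titles.

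The same 24 h contrast in WT cells, which share no repeat with it, was set beside the KO values. In WT, 95 probes were higher (0.652%) and 169 lower (1.16%). Of the 270 probes lower in KO, 253 were negative in WT and 73 were also called lower there, which is 27% of the KO and 43.2% of the WT list, while 54.9% of all probes were negative in WT. The 270 include the 61 repeated Gapdh spots, so 1 gene weighs heavily in these counts and in the medians below. Averaged over its 215 tested spots, Gapdh gave -0.23 ± 0.22 in WT (adjusted p = 0.920). The difference of Cyp2e1 was -2.21 in KO and -2.10 in WT, that of Cyp2f2 -1.96 in KO and -2.08 in WT, and that of Vtn -1.44 in KO and -1.57 in WT. Phyh gave -1.79 in KO and -1.81 in WT, Isg15 -1.81 in KO and -1.76 in WT, and Gbp4 -2.14 in KO and -2.53 in WT. For these 6 genes the KO minus WT difference of responses lay between -0.11 ± 0.41 (Cyp2e1) and 0.39 ± 0.57 (Gbp4), each smaller than its standard error, which does not show that the responses were alike. This held for 24 of the 49 named genes that fell. Among the others, Asgr1 was -1.31 in KO and -2.28 in WT and Gckr -1.14 in KO and -2.13 in WT, while Hamp was -1.93 in KO and -0.14 in WT, Mt1 -1.47 in KO and -0.44 in WT, and Fdps -0.92 in KO and -0.11 in WT, and none of these 5 differences passed (adjusted p = 0.792 to 0.848). Over the 270 lower probes, which were chosen on the KO values, the median was -1.12 in KO and -0.50 in WT. Of the 37 higher in KO, 27 were positive in WT and 7 called higher there (18.9% of the KO and 7.37% of the WT list). Tuba1a rose by 1.65 in KO and 3.54 in WT and S100a6 by 1.50 in KO and 3.44 in WT, differences of -1.88 ± 0.49 and -1.95 ± 0.40 that did not pass (adjusted p = 0.236 and 0.0555).

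The difference of the responses was tested directly, and 11 of 14580 probes passed (0.0754%), 5 higher and 6 lower in KO, with 803 at an unadjusted p under 0.05. Adh1 was the only named gene called in opposite directions, beside 1 probe without a symbol that was lower in KO and higher in WT. Adh1 changed by 1.31 in KO and -1.54 in WT, a difference of responses of 2.86 ± 0.46 (adjusted p = 0.00586). It had -1.68, -1.31 and -1.10 in WT 24 h, against -0.64, 0.40 and 0.78 in WT 0 h. The KO call of Adh1 was kept in 13 of 23 alternative settings. Gstm2, Gsta3 and Cyp2a5 are detoxification enzymes that fell in WT and did not pass in KO. The glutathione transferase Gstm2 had 1.29, 1.41 and 1.33 in KO 24 h, against 1.06, 0.98 and 1.01 in KO 0 h, and -1.20, -0.56 and -0.65 in WT 24 h, against 0.53, 1.33 and 0.91 in WT 0 h. Its difference of responses was 2.05 ± 0.28 (adjusted p = 0.00108), that of Gsta3 2.00 ± 0.23 (adjusted p = 4.83e-05) and that of Cyp2a5 2.64 ± 0.45 (adjusted p = 0.0101).

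Lower in KO than in WT were the responses of Enpp3, a nucleotide-cleaving ectoenzyme (-3.47 ± 0.66, adjusted p = 0.0295), Xirp2, an actin-binding protein (-2.01 ± 0.31, adjusted p = 0.00366), Ggct, a glutathione-cycle enzyme (-1.93 ± 0.34, adjusted p = 0.0101), and Apbb2 (-1.78 ± 0.30, adjusted p = 0.0101). These 4 rose in WT by 1.62 to 2.53. In KO they gave -0.94 to 0.10 and did not pass. The lowest, Enpp3, was 0.09 without KO 24 h repeat 2 and 0.17 on Cy5 arrays, so its sign turned. A second Apbb2 probe gave 0.23 in KO and 0.77 in WT. Gsta3, Ggct, Apbb2 and Ndst2, whose response was higher in KO by 1.72, were named after their values were seen. Gst and Cyp2a genes have close relatives whose signal a probe may share. The direction of 1 WT 0 h array (repeat 3, Cy5) was unsettled, and with its sign turned 13 probes were called and Enpp3 no longer was.

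**Figure D5:**
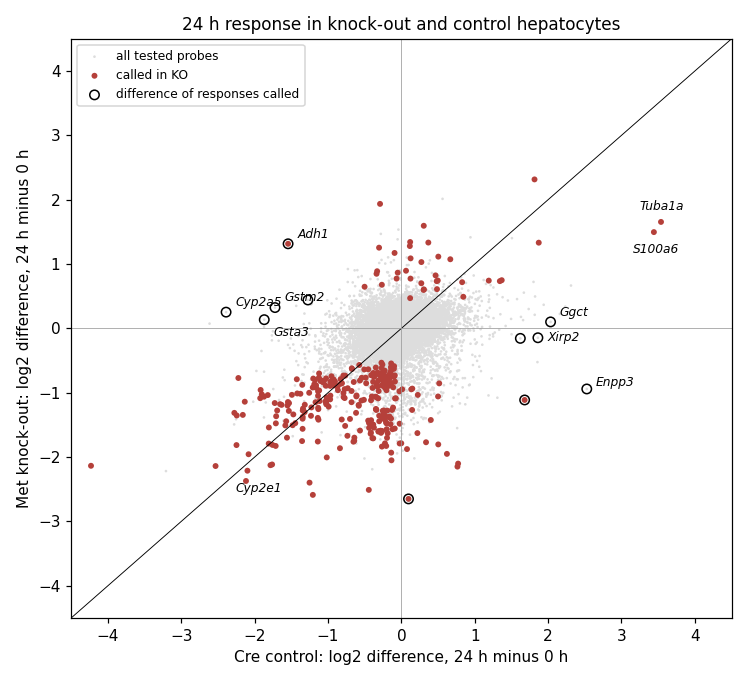
Log2 difference, 24 h minus 0 h, in KO (vertical) and WT (horizontal) hepatocytes for all 14580 tested probes, with the 307 called in KO in red, the 11 with a called difference of responses circled and the line of equal responses (WT is called Cre control on the axis). Most red points lie at lower left, lower in both genotypes; Adh1 lies at upper left, and Xirp2, Ggct and Enpp3 at right.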

How the data were processed

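Per the labels, hepatocytes were plated in serum, kept serum-free and given HGF the next day. The deposited values are log2 ratios of sample to pooled WT RNA per array (2 dyes); the sources used here do not give how the authors made them. The log base was inferred from the values, and the direction, sample over pool, is likely but not settled by the labels. Dye pairs were read as already turned, since Cyp2e1 was below the pool on all 6 KO 24 h arrays and KO differences on Cy5 and Cy3 arrays correlated at r = 0.216 over probes. Against this reading, the r between the arrays of a pair was negative in 21 of 30 repeats (-0.584 to 0.222), and Cyp2e1 had opposite signs on the 2 dyes in KO 0 h repeats 1 and 2. From them, the array medians were set to 0 and each repeat's dye pair averaged. Probes with values on both dyes in at least 2 of 3 repeats of all 10 groups were kept (14580 of 21997), with 17356 to 21511 values per array. The number of arrays limits the precision. A limma 3.58.1 model (R 4.3.3) had 1 mean per group over 30 repeats and group weights, and calls are at an adjusted p under 0.05 (Benjamini-Hochberg over all probes). It was tried on simulated data with independent normal noise scaled by group and probe. Those data held no dye effect, array-set shift or outlying array, so that check says nothing on these. P-values rest on the spread between the 3 mice of a group, pooled over all 10 groups and moderated across probes. They do not rest on the 6 KO repeats alone, which gave no call when fitted by themselves.

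Members and lists were chosen with earlier results of these data known. The named genes are the 12 highest and 12 lowest among called probes with 1 symbol whose groups did not overlap, up to 3 called members per list by smallest p (else the member with the smallest p), a panel (Met, Alb, Afp, Hnf4a, Cyp7a1, Cdh1, Ccnd1, Myc, Egr1), and the 3 called probes per sign with the largest difference of responses. Other called list members, and members given as not passing, were named after their values were seen. The numbers shared by repeats were checked as pairs (correlations of deviations 0.168, 0.0640 and 0.260) and not taken as pairs. Alternatives covered centring, scaling, weights, probe filters, single dyes, array sets, a replicate block and leaving out repeats.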

Additional observations from a re-analysis of the deposited data

Results flagged for a closer look

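The change from 0 h to 24 h with HGF differed between KO and WT hepatocytes at 11 of 14580 probes, by a test of the difference itself in limma. The 6 genes given here were named because they passed it, as the 3 per sign with the largest differences among genes with a symbol. The KO minus WT difference of responses was 2.86 ± 0.46 for Adh1 (adjusted p = 0.00586), 2.64 ± 0.45 for Cyp2a5 (adjusted p = 0.0101) and 2.05 ± 0.28 for Gstm2 (adjusted p = 0.00108). It was -3.47 ± 0.66 for Enpp3 (adjusted p = 0.0295), -2.75 ± 0.47 for 1700001D01Rik (adjusted p = 0.0140) and -2.01 ± 0.31 for Xirp2 (adjusted p = 0.00366). Enpp3 had -4.11 in KO 24 h repeat 2, against -0.92 and -1.11 in the other KO 24 h repeats. For 1700001D01Rik there were 2 values in each KO group, and its KO difference was 0.03 on Cy3 and -3.68 on Cy5 arrays. KO and WT mice also differed in strain, and the parts of strain and genotype cannot be told apart.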

How the results depend on the processing

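Calls in KO (307), in WT (264) and in the difference of responses (11) changed with the setting. With arrays scaled they were 193, 234 and 5, without weights 507, 1271 and 106, and with weights per repeat 1420, 1055 and 170. With only the groups compared they were 0, 50 and 4 without weights, and 0, 52 and 7 with group weights, where KO had 1514 and 1534 probes at an unadjusted p under 0.05. Cy5 arrays alone gave 70, 127 and 11, and Cy3 arrays alone 0, 45 and 0 (with 1314 and 674 at an unadjusted p under 0.05 in KO and in the difference). Removing dye profiles gave 354, 483 and 30. A replicate block gave 407, 424 and 20, array set as a term 1333, 2877 and 645, and set C alone 644, 815 and 65, where WT 24 h repeat 2 counts by its Cy5 array although its Cy3 array lies in set B. Accepting 1 dye gave 307, 297 and 17. Reading KO 24 h repeat 2 from Cy5 alone, chosen after seeing the data, gave 18 in KO and 6 for the difference. Leaving out 1 repeat gave 94 (KO 0 h repeat 2) to 595 (KO 24 h repeat 3) in KO, 59 to 827 in WT and 3 to 39 for the difference. In KO the count was 201 without KO 24 h repeat 1, and 128 and 535 without KO 0 h repeats 1 and 3. Signs reversed for 1700001D01Rik on Cy3 arrays (0.0298) and Gpatch1 on Cy5 arrays (0.0838). The cause was not tested.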

Other observations

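Cytosolic ribosomal proteins, which had no call in KO, had a median difference of 0.21 in KO (0.11 without KO 24 h repeat 2) and 0.58 in WT, where 7 of 50 rose. Among 57 actin and tubulin genes 2 rose and 3 fell in KO, and 4 rose and none fell in WT. Among 24 S100 proteins, annexins and keratins 2 rose and none fell in KO, and 3 rose and 1 fell in WT. Complement and coagulation genes had a median of -0.39 in KO and -0.90 in WT, with 8 of 37 lower in KO and 16 in WT. None of these list differences was tested.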
